A study of Tachycineta bicolor with 20 samples.

Results

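Among the ovarian transcripts of female tree swallows (Tachycineta bicolor), 147 were selected on their level in undisturbed birds: every undisturbed bird sampled on Day 2 had a higher level than every undisturbed bird sampled on Day 0. They were taken from 8989 transcripts that were the single transcript of their ID stem and had a mean level of 5 to 300 CPM, the count scaled to the library total, out of 14782 transcripts in all. The level of a transcript in the 10 control birds therefore chose the members, and the control difference is given below as a description, with no test. Levels in the 10 experimental birds played no part in the choice beyond their share in the mean CPM.

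Ovaries came from 20 wild adult females, each a separate bird. Control birds were left undisturbed and matched by date, with 5 birds on Day 0 and 5 on Day 2. Experimental birds had lost access to nest boxes for a time, a step meant to raise competition, and were sampled at its peak (Day 0, 6 birds) or 2 days later (Day 2, 4 birds). Day differences within a treatment compare different birds, and the day cannot be told apart from anything else that differed between the collections.

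Tree swallows breed in cavities they cannot dig, so females compete for nest sites. In the breeding ovary of a songbird, follicles at different stages of yolk deposition lie side by side. Granulosa and theca cells around each yolky follicle make progesterone, androgens and oestrogens, and the makeup of the whole organ changes as follicles grow and are ovulated. A library of a whole ovary mixes these cells, so more cells of a type and more RNA per cell cannot be told apart here. The transcripts carry IDs that the files pair with no gene name, so no function can be given to any of them, and the ovarian identity of the samples was not checked against marker genes.

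Total counts per library ran from 5818117 to 15718893. They were 8304445 to 13856417 in Day 0 controls, 8927386 to 13376380 in Day 2 controls, 5818117 to 12089161 in experimental birds of Day 0 and 8239722 to 15718893 in those of Day 2. The share of counts in the 10 most abundant transcripts of each bird lay between 4.06% and 6.27%.

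The 147 members made up 1.64% of the 8989 transcripts the rule could choose from. The opposite order, every Day 2 control below every Day 0 control, was found for 100 transcripts (1.11%). These counts moved with the scaling: with TMM (trimmed mean of M-values) factors in the CPM, 229 transcripts (2.55%) were higher and 75 (0.835%) were lower. If the 10 control birds were exchangeable, 1 in 252 orders would place all 5 Day 2 birds on top, which gives 35.7 transcripts in each direction. Without 1 control bird, 161 to 263 transcripts were higher, where 1 in 126 orders would place the Day 2 birds on top, or 71.3 transcripts of 8989. Transcripts of one ovary vary together, so this expected number does not tell how widely such a count can vary, and no p-value is attached to it.

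The members covered most of the range of abundance the rule allowed and had a higher median. Their mean CPM over the 20 birds ran from 8.86 to 284, with a median of 83.8, against a median of 41.0 over the 8989 transcripts. The ratio of the Day 2 to the Day 0 control mean ran from 1.12 to 1.91, with a median of 1.37, where the median over the 8989 transcripts was 0.981. In 38 members it was at least 1.5.

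The space between the control groups was narrow. The lowest Day 2 control stood above the highest Day 0 control by a median factor of 1.05, and in 30 of the 147 members by at least 1.1. Exact 95% Poisson intervals of the counts in those 2 birds, which cover counting error only, did not meet in 20 members and met in the other 127.

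Averaged over all members, the mean log2 CPM was 6.03 ± 0.0632 (SD, n = 5) in Day 0 controls. In Day 2 controls it was 6.51 ± 0.0730 (SD, n = 5). The members held 1.25% to 1.38% of the counts in the Day 0 controls and 1.72% to 1.93% in the Day 2 controls. These small SDs follow in part from the choice, since a transcript with a wide spread within a control group seldom qualifies. The mean log2 CPM of all 8989 transcripts, with 0.5 added to each CPM, was 5.24 to 5.33 in Day 0 controls and 5.17 to 5.24 in Day 2 controls.

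**Figure D1:**
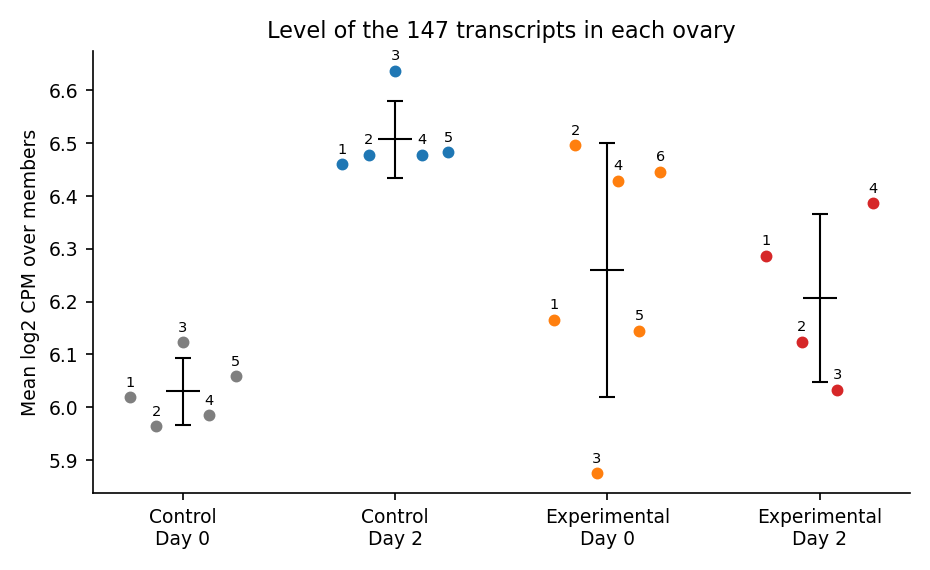
Mean log2 CPM over the 147 members (vertical axis) in each of the 20 birds, by group. Numbers are bird numbers, horizontal bars are group means and whiskers are 1 SD. The control groups are apart by construction, and the experimental birds spread from 5.88 to 6.50.

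The member with the widest space between the control groups was tree_swallow001676t1_sg0.0. Its level was 169, 162, 166, 123 and 161 CPM in control birds 1 to 5 of Day 0 and 234, 265, 313, 244 and 319 CPM in those of Day 2. In experimental birds it was 207, 296, 180, 309, 184 and 243 CPM on Day 0 and 228, 214, 177 and 272 CPM on Day 2. Every experimental bird thus lay above the highest Day 0 control, and birds 2, 4 and 6 of Day 0 and bird 4 of Day 2 reached the range of the Day 2 controls. The experimental Day 2 mean was 223 CPM ± 39.0 (SD, n = 4) and the Day 0 mean 236 CPM ± 56.1 (SD, n = 6). The edgeR log2 fold change between the days was -0.10 with an SE of 0.166 (edgeR adjusted p = 0.954).

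The second, tree_swallow018098t1_sg0.0, had 72.2, 55.6, 67.4, 60.4 and 57.8 CPM in Day 0 controls and 95.2, 110, 133, 104 and 106 CPM in Day 2 controls. Experimental birds had 89.7, 112, 52.8, 105, 64.4 and 124 CPM on Day 0 and 77.8, 74.0, 62.3 and 106 CPM on Day 2. Both experimental groups reached from the range of one control group into that of the other, and they overlapped each other. Between the days they differed by -0.21 on the log2 scale (SE 0.199, edgeR adjusted p = 0.919).

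The third, tree_swallow004051t1_sg0.0, was nearly constant in Day 0 controls, at 111, 102, 104, 108 and 109 CPM. Day 2 controls had 167, 145, 182, 148 and 149 CPM. Experimental birds had 130, 170, 128, 128, 96.0 and 145 CPM on Day 0 and 126, 91.6, 118 and 142 CPM on Day 2. Most of the experimental birds lay in the space between the control groups, with bird 5 of Day 0 and bird 2 of Day 2 below it and birds 2 and 6 of Day 0 above it.

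The fourth, tree_swallow005543t1_sg0.0, differed from the other three in that no experimental bird reached the Day 2 controls. It had 89.5, 88.4, 85.8, 83.8 and 74.1 CPM in Day 0 controls and 156, 117, 165, 136 and 134 CPM in Day 2 controls. Experimental birds had 87.2, 107, 69.6, 99.4, 87.6 and 106 CPM on Day 0 and 100, 82.6, 72.1 and 104 CPM on Day 2. Their means were 92.8 CPM ± 14.2 (SD, n = 6) and 89.7 CPM ± 14.9 (SD, n = 4). The edgeR log2 fold change between the days was -0.07 (SE 0.142, edgeR adjusted p = 0.968).

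**Figure D2:**
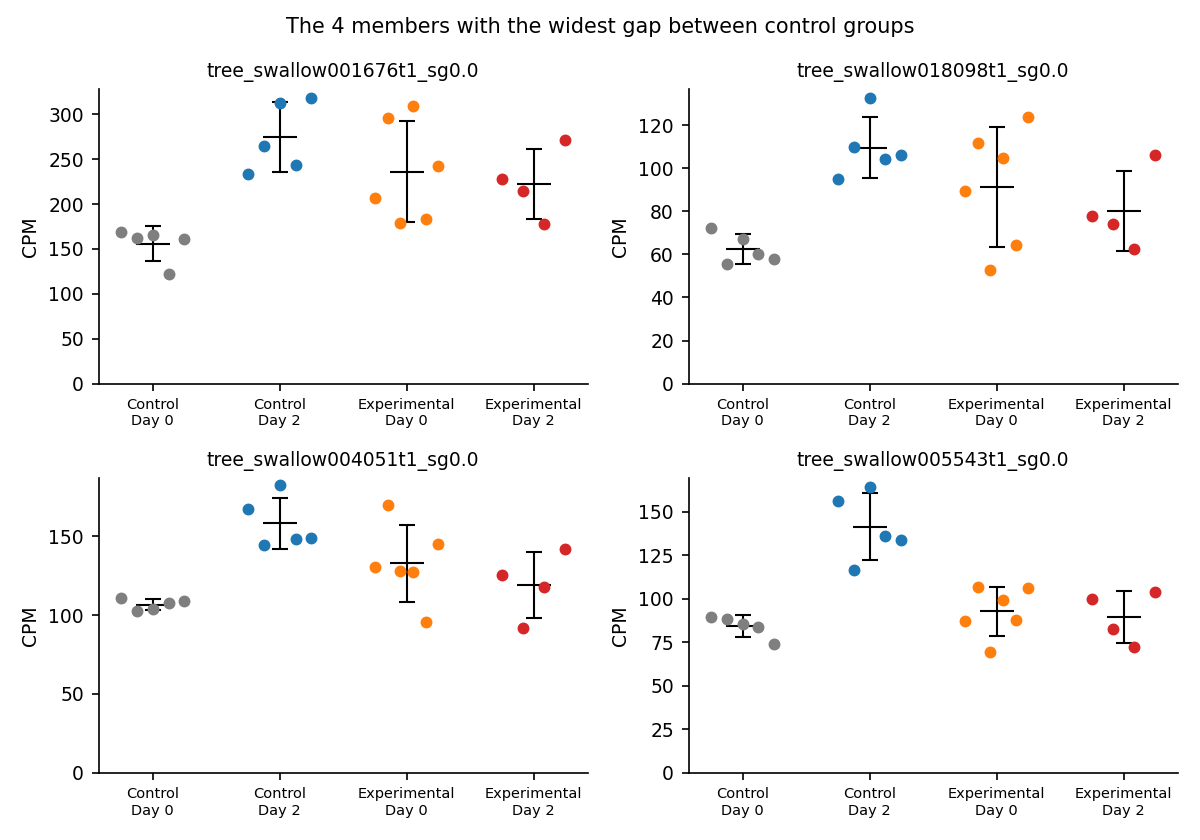
CPM per bird (vertical axis, from 0) of the 4 members with the widest space between the control groups. Points are birds in order of bird number, horizontal bars are group means and whiskers 1 SD. Experimental birds reach the Day 2 control range in all but tree_swallow005543t1_sg0.0, where the highest experimental bird has 107 CPM.

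At the edge of the rule stood tree_swallow005883t1_sg0.0, the member with the narrowest space. Its highest Day 0 control and its lowest Day 2 control both had 171 CPM after rounding, from 2261 and 1589 counts. The next, tree_swallow010123t1_sg0.0, had 49.1 CPM in both. Just outside the rule, tree_swallow003514t1_sg0.0 had 80.3 CPM in its highest Day 0 control and its lowest Day 2 control, and tree_swallow024022t1_sg0.0 had 8.03 CPM in both. The members nearest the limit are thus separated from non-members by far less than counting error.

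The ends of the abundance range were also examined. The most abundant, tree_swallow004493t1_sg0.0, had 246 to 266 CPM in Day 0 controls and 292 to 374 CPM in Day 2 controls. Experimental birds had 264, 312, 205, 349, 237 and 306 CPM on Day 0 and 298, 269, 241 and 304 CPM on Day 2, on both sides of the control space. The least abundant, tree_swallow010653t1_sg0.0, had 6.33 to 7.65 CPM in Day 0 controls and 8.70 to 12.0 CPM in Day 2 controls, and its closest control birds had 106 and 81 counts. Experimental birds had 7.03 to 12.0 CPM on Day 0 and 5.53 to 12.3 CPM on Day 2.

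The next question was where the experimental birds lay. For each member, the space between the highest Day 0 control and the lowest Day 2 control divides the levels into those at or below the Day 0 controls, those in between and those at or above the lowest Day 2 control. The median of the 6 experimental birds of Day 0 was at or below the Day 0 controls in 51 members (34.7%), in between in 40 (27.2%) and at or above the lowest Day 2 control in 56 (38.1%). The median of the 4 experimental birds of Day 2 was at or below the Day 0 controls in 90 members (61.2%), in between in 34 (23.1%) and at or above the lowest Day 2 control in 23 (15.6%). The limits were set by birds chosen to be apart, so these positions are a description and no test of treatment is drawn from them.

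Both medians lay at or below the Day 0 controls in 42 members and at or above the lowest Day 2 control in 13. In 34 members the Day 0 experimental median was at or above the lowest Day 2 control and the Day 2 experimental median was at or below the highest Day 0 control. The reverse arrangement was found in 3 members. The members vary together, as described below, so these counts rest on few birds and are not separate observations of a day difference.

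Single birds of each experimental group often fell on both sides of the space, which was narrow, with a median factor of 1.05. In 137 members the experimental birds of Day 0 lay on both sides of the space, with at least 1 bird at or below the Day 0 controls and at least 1 at or above the lowest Day 2 control. This was so for the Day 2 experimental birds in 110 members. All 4 experimental birds of Day 2 were under the lowest Day 2 control in 31 members. All 6 of Day 0 were under it in 3 members, and the groups differ in size. How often this order occurs among the other transcripts the rule could choose from was not counted. The rule placed every Day 2 control of a member high, which favours such an order, so no treatment difference is read from these counts.

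The position differed from bird to bird. On Day 0, experimental birds 2, 4 and 6 had 114, 101 and 108 of the 147 members at or above the lowest Day 2 control. Birds 1, 3 and 5 of the same group had 40, 15 and 27. On Day 2, birds 4 and 1 had 86 and 61 members there, and birds 2 and 3 had 22 and 9.

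The mean log2 CPM over the members showed the same order. In experimental birds 1 to 6 of Day 0 it was 6.17, 6.50, 5.88, 6.43, 6.15 and 6.45, and in birds 1 to 4 of Day 2 it was 6.29, 6.12, 6.03 and 6.39. Bird 3 of Day 0 was below every Day 0 control, of which the lowest stood at 5.96, while bird 2 of Day 0 was within the range of the Day 2 controls, 6.46 to 6.64. With TMM factors in the CPM, bird 3 of Day 0 stood at 5.99, inside the Day 0 control range of 5.93 to 6.11. The mean was 6.26 ± 0.240 (SD, n = 6) for the experimental birds of Day 0. For those of Day 2 it was 6.21 ± 0.159 (SD, n = 4), and both groups overlapped over most of their range.

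**Figure D3:**
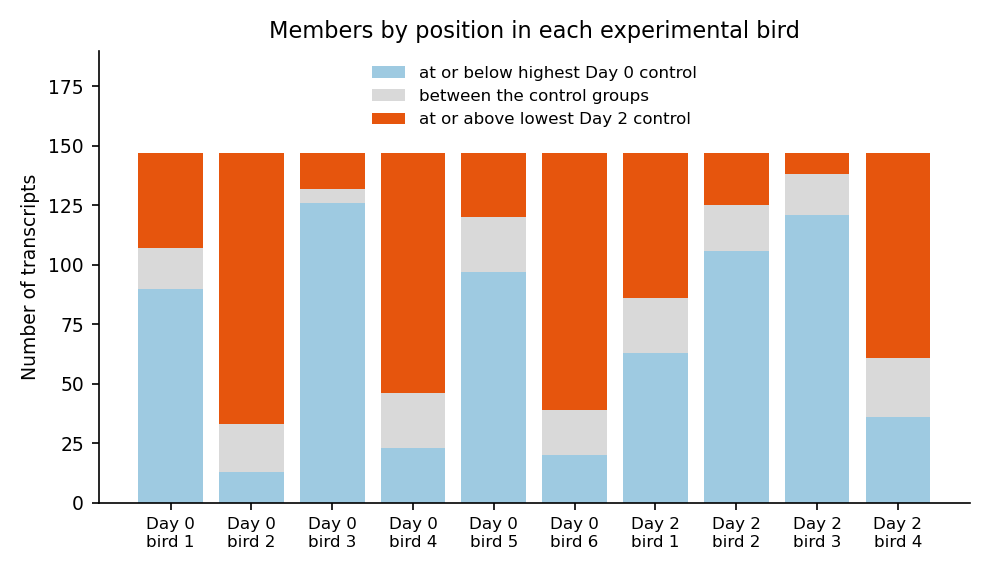
Number of the 147 members (vertical axis) at or below the highest Day 0 control, between the control groups, and at or above the lowest Day 2 control, in each of the 10 experimental birds. Birds 2, 4 and 6 of Day 0 have 101 to 114 members at or above the lowest Day 2 control, and bird 3 of Day 2 has 9.

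Members varied together from one experimental bird to the next. Over the 10 experimental birds, with each group's mean taken off, the 10731 pairs of members had a median Pearson's r of 0.515 and a median Spearman's rho of 0.479. The same medians over all pairs of the 8989 transcripts were 0.019 and 0.018. All members were chosen to go in the same direction between the control days, and the 8989 transcripts were not. Signed correlations of such lists are not like for like, and how far this sets the medians apart was not tested. These are descriptions over 10 libraries that all pairs share.

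The level of the members in experimental birds also went with the main direction of variation of the other transcripts. The first component of the 8842 transcripts that could have been chosen and were not held 29.0% of their variance over the 20 birds. Its scores in experimental birds 1 to 6 of Day 0 were 99.7, -41.9, 123, -20.4, 9.71 and -40.9, and in birds 1 to 4 of Day 2 they were -22.4, 14.1, 15.3 and -39.9. The 5 experimental birds with scores below 0 had member levels of 6.29 to 6.50, and the 5 with scores above 0 had 5.88 to 6.17.

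Control birds cannot be read for this order, since their member levels were fixed by the choice. Total counts in experimental birds 1 to 6 of Day 0 were 7190914, 5818117, 6539735, 11031100, 12089161 and 8695371, and in birds 1 to 4 of Day 2 they were 10410837, 8239722, 15718893 and 9091559. The part of this component and of depth in the spread of the members was not tested.

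The contrast between experimental birds of Day 2 and of Day 0 sets no control bird against another. Its errors are less free of the choice, because the fit of all 4 groups shares 1 estimate of spread with the control birds, whose spread the rule kept small in the members. By edgeR's quasi-likelihood test, fitted to 13742 transcripts in all 4 groups, 0 of the 147 members passed a Benjamini-Hochberg adjusted p under 0.05, and 0 of all transcripts did (0%). The smallest adjusted p among members was 0.899. At an unadjusted p under 0.05, 0 members were higher on Day 2 and 7 (4.76%) were lower, where 2.33% and 2.77% of all transcripts were. With only the 10 experimental birds in the edgeR fit, 0 members were called, the smallest adjusted p among members was 0.945, and 3 members (2.04%) had an unadjusted p under 0.05, against 4.54% of all transcripts tested. DESeq2 called 0 members and 9 of all transcripts (0.0655%), with 8 members (5.44%) and 5.87% of all transcripts at an unadjusted p under 0.05. By limma-voom, 0 members and 1 of all transcripts (0.00728%) were called, with 16 members (10.9%) and 7.18% of all transcripts at an unadjusted p under 0.05.

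The day difference of the members in experimental birds was small and mostly below 0. Their log2 fold changes ran from -0.45 to 0.38 with a median of -0.09, against a median of -0.03 over all 13742 transcripts. They were below 0 in 117 of 147 members (79.6%), against 54.2% of all transcripts. Because the members vary together, this share rests on few birds. Without experimental bird 3 of Day 2 it was 57.8% against 52.1% of all transcripts, and without bird 4 of Day 2 it was 89.1% against 56.2%. With limma-voom the median of the members was -0.19, against -0.02 over all transcripts.

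The edgeR fit of only the experimental birds gave the width of these differences without the control birds. The log2 fold change had a 95% interval inside ±1 for 146 of 147 members and inside ±0.5 for 74. The interval included 0 in 144, all but the 3 members with an unadjusted p under 0.05, which rests on the same statistic. The median SE was 0.176 for the members and 0.209 for the 8988 of the 8989 transcripts that this fit tested. These medians were not matched for abundance. The log2 differences, SEs and adjusted p-values printed for single members come from the fit of all 4 groups. That fit uses TMM factors, so its log2 differences are not ratios of the printed CPM means.

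No member had its experimental birds fully apart between the days, in either direction. Of the 8989 transcripts, 50 (0.556%) had every Day 2 experimental bird above every Day 0 experimental bird and 53 (0.59%) had the opposite, so a list of 147 is near that background with 0. With 1 experimental bird left out, which loosens the order, 0 to 2 members were apart in either direction, against 120 to 252 of the 8989 transcripts (1.33% to 2.8%).

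**Figure D4:**
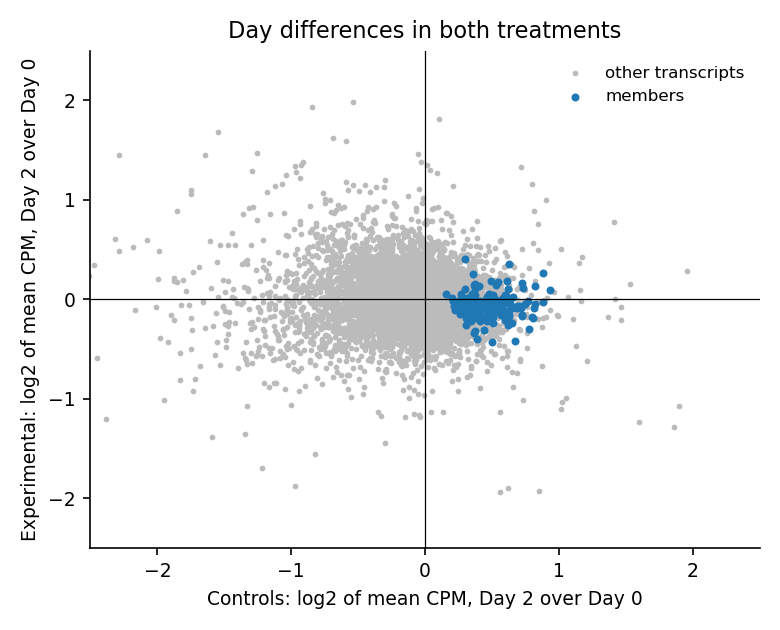
Log2 ratio of mean CPM, Day 2 over Day 0, in control birds (horizontal axis) and experimental birds (vertical axis) for the 8989 transcripts, with the 147 members in blue and 25 other transcripts beyond the axes. The members lie right of 0 by choice and close to 0 on the vertical axis.

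The most negative experimental day difference was that of tree_swallow008930t1_sg0.0. Its level was 38.8, 51.9, 35.6, 37.5, 29.9 and 38.4 CPM in experimental birds of Day 0 and 25.4, 29.1, 29.2 and 31.6 CPM in those of Day 2. Only bird 5 of Day 0 reached into the Day 2 range, and the log2 difference was -0.45 (SE 0.151, edgeR adjusted p = 0.899). In controls the same transcript had 24.3 to 34.0 CPM on Day 0 and 34.3 to 49.5 CPM on Day 2, so the experimental birds of Day 2 stood within the range of the Day 0 controls.

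Next came tree_swallow009765t1_sg0.0, at 77.6, 61.9, 75.4, 56.7, 43.0 and 52.7 CPM in experimental birds of Day 0 and 54.7, 33.3, 50.3 and 45.1 CPM in those of Day 2. All 6 Day 0 experimental birds were above the highest Day 0 control, at 40.3 CPM. The log2 difference was -0.44 (SE 0.206, edgeR adjusted p = 0.899). The third, tree_swallow004481t1_sg0.0, had 40.5 to 52.1 CPM in experimental birds of Day 0 and 42.6, 35.8, 31.9 and 31.6 CPM in those of Day 2, a log2 difference of -0.42 (SE 0.136, edgeR adjusted p = 0.899).

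The most positive was tree_swallow008550t1_sg0.0, at 74.4, 89.5, 52.4, 121, 53.2 and 102 CPM in experimental birds of Day 0 and 86.9, 131, 115 and 102 CPM in those of Day 2. The groups overlapped, and the log2 difference was 0.38 (SE 0.186, edgeR adjusted p = 0.899). For tree_swallow007919t1_sg0.0 the experimental levels were 80.5, 98.1, 68.2, 82.3, 45.7 and 83.4 CPM on Day 0 and 97.7, 92.8, 87.2 and 113 CPM on Day 2. All 4 Day 2 experimental birds of that transcript were above the lowest Day 2 control, at 83.2 CPM, and the log2 difference was 0.33 (SE 0.174, edgeR adjusted p = 0.899). For tree_swallow001728t1_sg0.0 the value was 0.23 (SE 0.167, edgeR adjusted p = 0.899), with bird 4 of Day 2 at 62.0 CPM and the other 3 at 36.6 to 40.3 CPM.

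The spread among birds of one group was summarised last. For the members, the median SD of log2 CPM, with 0.5 added, was 0.169 in Day 0 controls and 0.147 in Day 2 controls, and 0.299 and 0.230 in experimental birds of Day 0 and Day 2. Over the 8989 transcripts the medians in the same order were 0.295, 0.279, 0.341 and 0.260. The low control values of the members follow in part from the choice. In experimental birds, which the choice did not compare, the median SD of the members was slightly under that of the 8989 transcripts on both days. The members were also more abundant, with a median of 83.8 CPM against 41.0 CPM, and the SDs were not matched for abundance.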

How the data were processed

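Per the labels' protocols, tissue was put on dry ice at the field site, Trizol was used to extract RNA, and stranded mRNA libraries were made. The submitters' processing notes list CASAVA, fastp (0.20.1), Bowtie2 (2.4.2) and SAMtools. No source used here gives the role of each, the reference, the counter or its use of strand. The values deposited are whole-number counts, not normalized. One line that names no transcript held 0 counts and was left out.

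CPM is the count over the library total. Transcripts of the 1132 stems with several were left out of the choice of members, since how shared reads were assigned to them is not stated. They were not removed from the fits. Counts were fitted in edgeR 4.0.16 (R 4.3.3), with filterByExpr (minimum count 10, minimum total 15), TMM factors and robust quasi-likelihood, 4 group means and no covariate. All 147 members passed the filter, which kept 13742 transcripts. DESeq2 1.42.0 and limma 3.58.1 voom with sample weights were alternatives. Poisson intervals of counts cover counting error only. The SE of an edgeR log2 fold change was its absolute value over the square root of the quasi-likelihood F statistic. Intervals of log2 fold changes were built from this SE, which takes in the spread among birds.

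The members, lists and tests were chosen with earlier results of these data known. Named transcripts are the 4 members with the widest and the 2 with the narrowest space between controls, the 2 nearest non-members, the 3 most positive and 3 most negative experimental day differences, and the members of highest and lowest mean CPM. Birds are numbered in sample order, and the labels pair no bird with another.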

Additional observations from a re-analysis of the deposited data

Results flagged for a closer look

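In 3 of 68 tests of a value within a group of birds, 1 bird lay far from the others of its group. The test is set to flag about 1 in 20 by chance. Many of the values belong to control birds used by the rule or to transcripts named for their extremes. That rate therefore does not hold for them, and no conclusion is drawn from the number of flags. Averaged over the members, log2 CPM reached 6.64 in bird 3 of the Day 2 controls, while the other 4 stood at 6.46 to 6.48. For tree_swallow001676t1_sg0.0, bird 4 of the Day 0 controls had 123 CPM and the remaining birds 161 to 169 CPM. For tree_swallow001728t1_sg0.0, bird 4 of the Day 2 experimental group had 62.0 CPM and the remaining birds 36.6 to 40.3 CPM.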

How the results depend on the processing

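All 147 members also qualified with TMM-scaled CPM, which gave 229, and with median-of-ratios scaling, which gave 220. With libraries thinned to the smallest total, an alternative chosen after seeing the data, 135 qualified, 111 of them members. Leaving out 1 control bird, which loosens the rule by construction, gave 161 to 263, among them 236, 229 and 263 without birds 3, 4 and 5 of Day 0 and 229 and 247 without birds 1 and 2 of Day 2. Of the larger list found with TMM, the Day 0 experimental median was in between in 71 and at or above the lowest Day 2 control in 86, and the Day 2 experimental median was at or below the Day 0 controls in 142 (62.0%) and at or above the lowest Day 2 control in 39. With median-of-ratios scaling the Day 0 experimental median was in between in 65, and the Day 2 experimental median was in between in 52 and at or above the lowest Day 2 control in 38. The lists held 229 and 220 transcripts against 147, so the counts are not like for like. The Day 0 share in between was 31.0% with TMM and 29.5% with median-of-ratios scaling, against 27.2% of members. The Day 0 share at or above was 37.6% with TMM, against 38.1%. The Day 2 share at or above was 17.0% and 17.3%, against 15.6%. The Day 2 share in between was 23.6% with median-of-ratios scaling, against 23.1%. Of the 229 transcripts found with TMM, 2 (0.873%) had experimental birds apart between the days, against 1.09% of the 8985 transcripts available under that scaling. Of the 147 members, 0 to 2 were apart with 1 bird left out, against 1.33% to 2.8% of the 8989 transcripts. Over all transcripts the experimental day contrast gave 9 calls with DESeq2, 1 with limma-voom, 1 at an adjusted p under 0.10 and 0 to 1 with 1 bird left out, and 0 members were called in any of these. The median log2 fold change of the members was -0.19 with limma-voom and -0.14 to -0.03 with 1 bird left out, and the cause was not tested. No paired analysis was possible because the labels give no replicate numbers shared between groups.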
